A study of Mus musculus with 4 samples.

Results

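Rhes (Rasd2), Ddit4l and the core of the mTOR pathway were followed in the striatum of aged mice, as 10 genes out of the 32531 gene rows of the count tables. The members were taken by symbol: the paralogous small GTPase genes Rasd2 and Rasd1, the mTOR inhibitor genes Ddit4 and Ddit4l, the TSC genes Tsc1 and Tsc2, the GTPase gene Rheb, the kinase gene Mtor and its partners Rptor and Rictor. All 10 were found. The set was selected on the measured difference between the regions, since Rasd2 and Ddit4l were already known to differ in these libraries, so the regional values of the members are given as a description without a test.

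Total RNA was sequenced from dissected nucleus accumbens and dorsal striatum, with 2 libraries per region. Every animal was older than 20 months and of the Drd1-TRAP line CP73, which carries Drd1-EGFP/Rpl10a, a tagged ribosomal protein placed under the control of the dopamine D1 receptor gene. All 4 libraries were of the input kind, read here as whole-tissue RNA without ribosome capture, so the transgene did not choose the cells measured. Both regions share age and genotype, and neither young nor transgene-free animals were analysed here. Whether the libraries of a region are from separate animals is not said in the labels. The p-values therefore cover the spread of these libraries alone, which could be technical.

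Between 8478403 and 11849134 reads were assigned to genes per library. Genes with any count numbered 19519 and 19532 in the dorsal striatum libraries and 16915 and 17417 in the accumbens libraries. Levels are given in CPM, which sets each count against the size of its library, here corrected for library composition by TMM (a trimmed mean). The TMM factors were 1.06 in both dorsal striatum libraries and 0.940 and 0.945 in the accumbens libraries. Detection and scaling thus differed along with region, and the cause was not tested. Every log2 fold change is that of the accumbens relative to the dorsal striatum, and the median over all genes tested was 0.02. The markers of spiny projection neurons (SPNs), the main neuron class of both regions, were abundant: the 14 listed genes summed to 9220 and 9297 CPM in the dorsal striatum and to 8743 and 7351 CPM in the accumbens. Drd1 itself stood at 300.0 and 286 CPM in the dorsal striatum and at 258 and 220 CPM in the accumbens. In whole tissue, fewer cells of a type and less RNA per cell cannot be told apart.

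The mTOR kinase works in 2 complexes. In mTORC1 it is joined by raptor (Rptor) and promotes protein synthesis and growth while restraining autophagy, and in mTORC2 it is joined by rictor (Rictor) and phosphorylates Akt. Rheb bound to GTP switches mTORC1 on, and the complex of hamartin (Tsc1) and tuberin (Tsc2) turns Rheb off. The REDD proteins, encoded by Ddit4 and Ddit4l, dampen mTORC1 upstream of Rheb under stress. Rhes, encoded by Rasd2, is a Ras-like GTPase concentrated in the striatum that has been reported to bind mTOR and mutant huntingtin and to influence dopamine receptor signalling.

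Rasd2 and Ddit4l are the members with both accumbens libraries below both dorsal striatum libraries. For both genes, the 250 bases before the RefSeq start (build GRCm38.p6, plus strand) are shown. They lie at chr8:75213694-75213943 for Rasd2 and at chr3:137623422-137623671 for Ddit4l, and capitals mark matches to the motifs named below. Each window ends right before the first exon of the longest coding transcript in GENCODE. The gene span of Ddit4l printed below begins further upstream, with a noncoding transcript, so its window lies in an intron of that transcript.
Rasd2: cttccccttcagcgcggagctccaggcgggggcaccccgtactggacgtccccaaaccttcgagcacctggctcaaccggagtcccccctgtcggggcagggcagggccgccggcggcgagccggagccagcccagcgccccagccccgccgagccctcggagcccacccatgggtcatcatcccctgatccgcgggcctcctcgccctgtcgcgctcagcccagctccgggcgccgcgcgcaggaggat
Ddit4l: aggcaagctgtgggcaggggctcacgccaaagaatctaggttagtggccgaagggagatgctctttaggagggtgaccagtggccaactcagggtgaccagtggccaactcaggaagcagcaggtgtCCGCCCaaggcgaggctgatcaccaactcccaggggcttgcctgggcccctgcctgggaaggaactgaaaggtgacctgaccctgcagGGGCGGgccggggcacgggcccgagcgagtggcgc

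Both windows were rich in G and C, at 75.2% for Rasd2 and 65.2% for Ddit4l against a median of 52.4% over 32817 windows of the same length. Rasd2 had 27 CpG dinucleotides and Ddit4l 10, against a median of 6. Both strands were searched for the GC box GGGCGG (held by 32.7% of all windows), the CCAAT box (CCAAT, 33.8%), the TATA box (TATAAA, 12.4%), the E-box CACGTG (6.02%) and the cyclic AMP response element TGACGTCA (1.55%) and its core TGACG (17.7%), which lies within it. The Ddit4l window held 2 GC boxes, starting 123 and 35 bases before the RefSeq start, and no other listed motif. None of the listed letters occurred in the Rasd2 window.

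Rasd2 was the most abundant member in every library, and its level in the accumbens was below that in the dorsal striatum. The gene lies on chromosome 8 (75213944 to 75224113, plus strand, mm10), and its longest coding transcript has 3 exons. Its level was 513 and 589 CPM in dorsal striatum replicates 1 and 2 and 251 and 196 CPM in accumbens replicates 1 and 2. The regions did not overlap, and the lower dorsal striatum library was above the higher accumbens library. The means were 551 ± 54.2 and 223 ± 38.9 CPM (SD, n = 2 each), a 2.47-fold lower level in the accumbens (log2 fold change −1.30, SE 0.15). With each library left out in turn the value ran from −1.50 to −1.14.

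Rasd2 was also lower in the accumbens relative to the SPN markers. Per 100 counts of the 14 SPN markers, Rasd2 had 5.56 and 6.34 counts in the dorsal striatum and 2.87 and 2.66 in the accumbens, a log2 ratio of −1.11. This denominator was chosen after seeing the data, and it contains Rgs9 (log2 fold change −1.13, SE 0.13, edgeR adjusted p = 0.0233), the single SPN marker of 14 past the threshold. Chat, the enzyme gene of cholinergic interneurons, which are reported to express Rhes as well, stood at 16.7 and 20.7 CPM in the dorsal striatum and 17.5 and 14.3 CPM in the accumbens, with overlapping groups. The 4 cholinergic markers summed to 91.6 and 112 CPM against 82.3 and 100.3 CPM.

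Rasd1, the paralog that encodes the dexamethasone-induced GTPase Dexras1 (chromosome 11, 59963181 to 59964944, minus strand), was close to the detection limit. It had 3 and 9 counts in dorsal striatum replicates 1 and 2 and 16 and 0 counts in accumbens replicates 1 and 2. The regions overlapped, with the highest and the lowest count both in the accumbens. Rasd1 was the single member that did not pass the low-count filter, and no fold change is given for it. A count of 0 in accumbens replicate 2 allows a level of up to 0.375 CPM (3 counts), for counting error only.

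**Figure D1:**
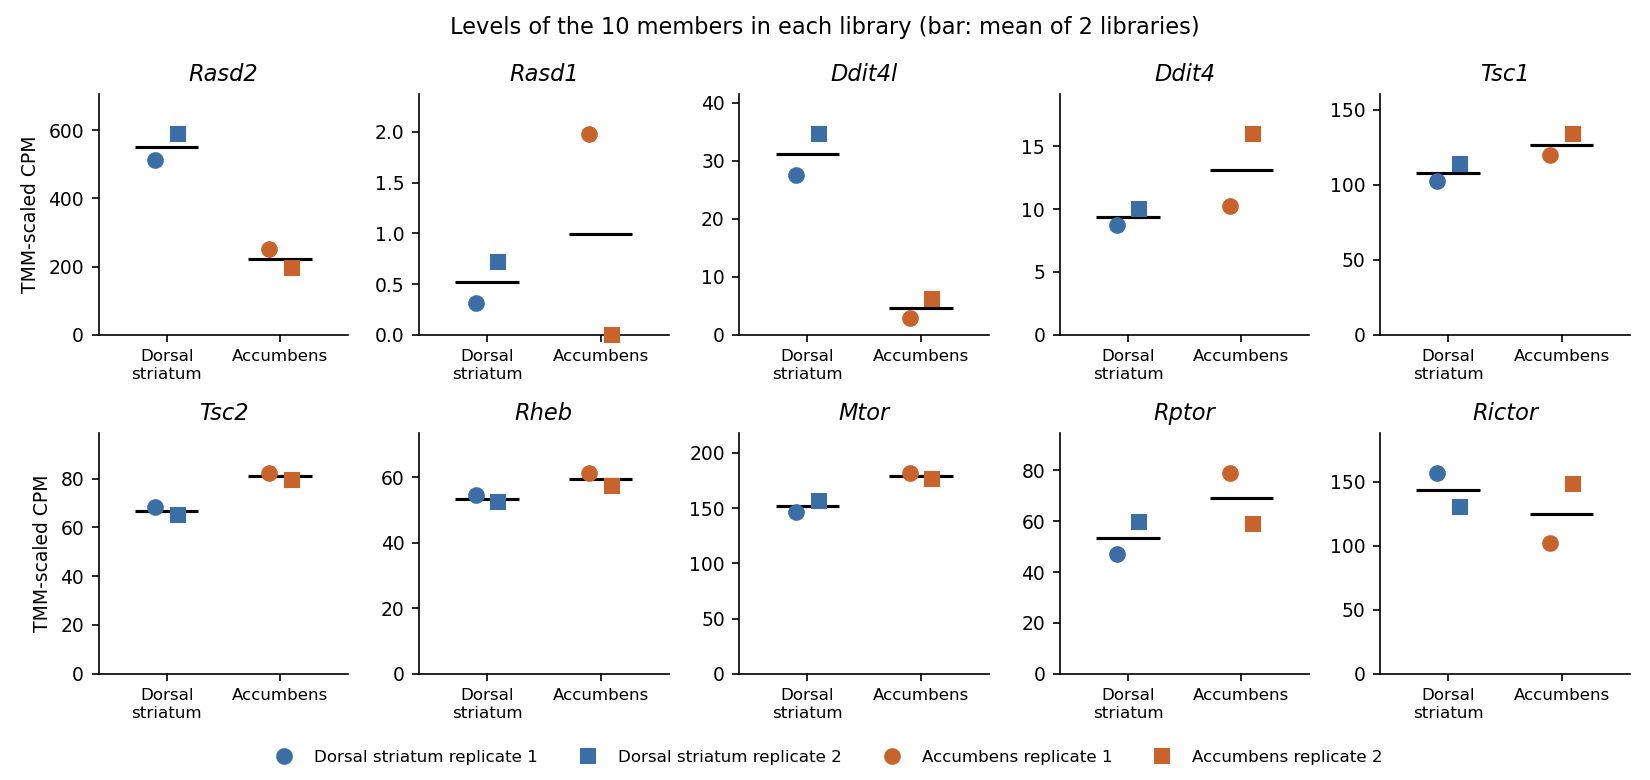
Level of each member in each library, in TMM-scaled CPM (vertical axis from 0, separate scale per gene); circles are replicate 1, squares replicate 2, and bars the mean of the 2 libraries of a region. Rasd2 and Ddit4l had both accumbens libraries far below both dorsal striatum libraries, while Mtor, Tsc1, Tsc2 and Rheb differed by small amounts between regions.

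Ddit4l, which encodes the mTORC1 inhibitor REDD2, had the lowest fold change of the members. It lies on chromosome 3 (137621612 to 137628333, plus strand), and its longest coding transcript has 3 exons. Its level was 27.5 and 34.7 CPM in dorsal striatum replicates 1 and 2 and 2.85 and 6.25 CPM in accumbens replicates 1 and 2. Those accumbens values rest on 23 and 50 counts, against 262 and 435 in the dorsal striatum. The regions were far apart, and the accumbens libraries differed from each other by a ratio of 2.19.

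The means of Ddit4l were 31.1 ± 5.05 CPM in the dorsal striatum and 4.55 ± 2.41 CPM in the accumbens, a 6.83-fold lower level (log2 fold change −2.77, SE 0.40). It held rank 90 from the lowest among 14493 tested genes, and Rasd2 rank 508. The value was −3.45 without accumbens replicate 2 and −2.32 without accumbens replicate 1. Per 100 SPN marker counts, Ddit4l had 0.299 and 0.373 counts in the dorsal striatum and 0.0326 and 0.0850 in the accumbens.

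Ddit4, which encodes REDD1 and is induced by hypoxia, energy stress and glucocorticoids (chromosome 10, 59949669 to 59951834, minus strand), did not share that pattern. It stood at 8.72 and 10.04 CPM in the dorsal striatum and at 10.3 and 16.0 CPM in the accumbens. The regions did not overlap, but the nearest libraries were almost level. Its log2 fold change was 0.48 (SE 0.36), with a range of 0.13 to 0.76 when a library was left out and a value of 0.31 with scaling by library size only.

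The balance between the 2 REDD genes was reversed between regions. Per kilobase of the longest coding transcript, Ddit4l exceeded Ddit4 by ratios of 2.04 and 2.23 in dorsal striatum replicates 1 and 2. In accumbens replicates 1 and 2 the ratios were 0.179 and 0.252, so that Ddit4 was the more abundant. The level of Ddit4l per kilobase was 11.4 ± 1.85 against 1.67 ± 0.884, and that of Ddit4 5.35 ± 0.532 in dorsal striatum and 7.49 ± 2.31 in accumbens (SD, n = 2 each).

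Foxj1 and Ccdc153, markers of the ependymal cells that line the ventricle beside the dorsal striatum, were both lower in the accumbens. The choroid plexus gene Kl was higher, and none of the tested markers passed the threshold. Foxj1, the master gene of motile cilia, stood at 7.56 and 6.69 CPM in the dorsal striatum and at 1.49 and 2.38 CPM in the accumbens (log2 fold change −1.88, SE 0.55, edgeR adjusted p = 0.127). Ccdc153 stood at 2.73 and 3.51 CPM in the dorsal striatum and was at 0 in both accumbens libraries (edgeR adjusted p = 0.0591). Kl, a choroid plexus gene, lay the other way, at 3.26 and 4.30 CPM in the dorsal striatum and 10.3 and 10.3 CPM in the accumbens (log2 fold change 1.43, SE 0.42, edgeR adjusted p = 0.126). The 5 ependymal and choroid plexus markers summed to 13.7 and 14.7 CPM in the dorsal striatum and to 11.8 and 12.6 CPM in the accumbens, where Kl made up most of the sum. These near-level sums therefore do not show the lower levels of Foxj1 and Ccdc153. The choroid plexus genes Ttr and Folr1 were at or near 0 in all libraries. The part of ependymal cells in the Ddit4l values was not tested.

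Markers of cortical neurons were mixed. Slc17a7, the glutamate transporter gene of cortical neurons, stood at 32.3 and 0.717 CPM in the dorsal striatum and at 198 and 79.4 CPM in the accumbens. The 8 cortical markers summed to 239 and 263 CPM in the dorsal striatum and to 369 and 223 CPM in the accumbens, with Nrgn, which SPNs also express, as a large share, and Neurod6 was at 0 in dorsal striatum replicate 2. Of the 7 tested, Nrgn passed the threshold and was lower in the accumbens (edgeR adjusted p = 0.047). Glial sums overlapped between regions for astrocytes (1931 to 2809 CPM against 2724 to 3177 CPM) but not for oligodendrocytes (1570 to 2220 CPM against 2281 to 2629 CPM). Sums were 51.9 and 39.2 CPM against 61.4 and 65.8 CPM for 6 microglia markers, 99.8 and 164 against 82.0 and 146 CPM for 6 markers of septum, pallidum and hypothalamus, and 27.1 and 14.4 against 48.9 and 16.4 CPM for 6 vascular markers. Of all these lists, the astrocyte gap junction gene Gja1 was the single further member past the threshold (edgeR adjusted p = 0.0491). Their part in the members' values was not tested.

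Tsc1 and Tsc2, whose products restrain Rheb, had similar small differences. Tsc1 (chromosome 2, 28641228 to 28691167) stood at 102 and 114 CPM in the dorsal striatum and at 120 and 134 CPM in the accumbens (log2 fold change 0.23, SE 0.15). Tsc2 (chromosome 17, 24595816 to 24632630) stood at 68.3 and 64.9 CPM in the dorsal striatum and at 82.4 and 79.4 CPM in the accumbens, a difference of 0.28 (SE 0.15) on the log2 scale. Both genes had non-overlapping regions. With scaling by library size only the log2 fold changes were 0.06 for Tsc1 and 0.11 for Tsc2. Per kilobase, Tsc1 was above Tsc2 in every library, by ratios of 1.18 to 1.42. Exons of Tsc2 overlap those of Pkd1 on the opposite strand, and without a stated strand setting reads of the pair cannot be told apart.

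Rheb, the GTPase that Tsc2 inactivates (chromosome 5, 24802823 to 24842624, minus strand), differed least of the tested members. It stood at 54.5 and 52.4 CPM in the dorsal striatum and at 61.4 and 57.4 CPM in the accumbens. The log2 fold change of 0.15 (SE 0.17) turned to −0.02 when libraries were scaled by size only, a setting that moves the median of all tested genes from 0.02 to −0.15. Relative to Rheb per kilobase, Rasd2 was 5.97 and 7.15 times as abundant in the dorsal striatum and 2.59 and 2.17 times in the accumbens.

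Mtor, the kinase gene (chromosome 4, 148448611 to 148557683), had the smallest SE of the 9 tested members. It stood at 146 and 157 CPM in the dorsal striatum and at 182 and 176 CPM in the accumbens. Both accumbens libraries were above both dorsal striatum libraries, and the log2 fold change was 0.24 (SE 0.13), or 0.07 with scaling by library size only.

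Rptor and Rictor, which define the mTOR complexes, had overlapping regions. Rptor (chromosome 11, 119602905 to 119899576) stood at 47.1 and 59.5 CPM in the dorsal striatum and at 79.0 and 58.9 CPM in the accumbens, a log2 fold change of 0.37 (SE 0.21). Its exons overlap those of Rptoros, an antisense transcript. Rictor (chromosome 15, 6708379 to 6800401) stood at 157 and 130 CPM in the dorsal striatum and at 102 and 148 CPM in the accumbens, a log2 fold change of −0.20 (SE 0.20). With scaling by library size only the values were 0.20 for Rptor and −0.37 for Rictor. Rictor was at its lowest, and Rptor at its highest, in accumbens replicate 1.

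That library stood apart in the ratio of the mTORC1 to the mTORC2 partner. Per kilobase, Rptor over Rictor was 0.423 and 0.646 in dorsal striatum replicates 1 and 2, 1.09 in accumbens replicate 1 and 0.562 in accumbens replicate 2. Without accumbens replicate 1 the log2 fold change was 0.14 for Rptor and 0.04 for Rictor. Without accumbens replicate 2 it was 0.56 and −0.49, and both genes passed the threshold in that fit, where 28.9% of all genes did so.

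**Figure D2:**
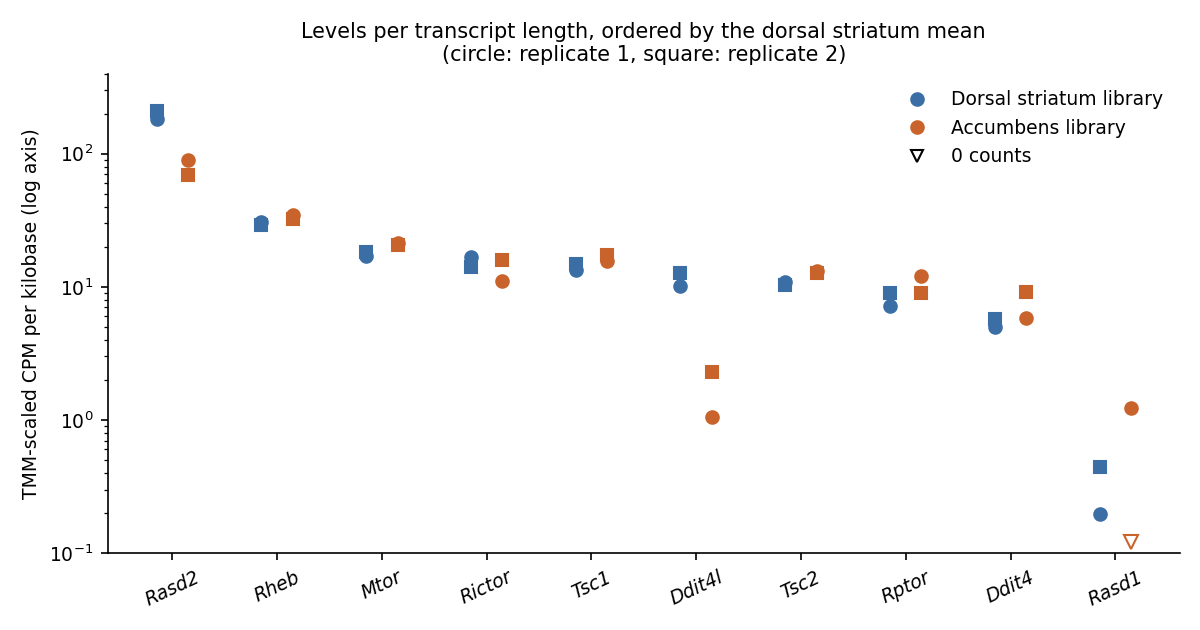
Level of each member per kilobase of its longest coding transcript, in TMM-scaled CPM per kilobase on a log axis, in the 4 libraries (circles replicate 1, squares replicate 2, open triangle a count of 0); genes are ordered by the dorsal striatum mean. Rasd2 stands above the other members in every library, and Ddit4l drops from rank 6 of the 10 in the dorsal striatum to rank 9 in the accumbens.

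Ordered by level per kilobase in the dorsal striatum, Rasd2 led with 196 ± 19.3 (SD, n = 2), followed by Rheb (29.96 ± 0.863), Mtor (17.7 ± 0.868), Rictor (15.4 ± 2.05) and Tsc1 (14.0 ± 1.03). Ddit4l (11.4 ± 1.85), Tsc2 (10.6 ± 0.378), Rptor (8.08 ± 1.34), Ddit4 (5.35 ± 0.532) and Rasd1 (0.320 ± 0.176) came after. Rictor and Tsc1, and Ddit4l and Tsc2, were closer to each other than the larger SD of the pair. In the accumbens Rasd2 (79.4 ± 13.9), Rheb (33.3 ± 1.61) and Mtor (20.9 ± 0.481) again came first. Tsc1 (16.5 ± 1.33), Rictor (13.4 ± 3.49) and Tsc2 (12.9 ± 0.338) followed, with each neighbour closer than the larger SD of its pair. Rptor (10.5 ± 2.16), Ddit4 (7.49 ± 2.31), Ddit4l (1.67 ± 0.884) and Rasd1 (0.615 ± 0.870) ended the order.

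Over the 9 members tested, the median log2 fold change was 0.23, against 0.02 over all 14493 tested genes, whose middle 50% lay between −0.33 and 0.39. With scaling by library size only the members' median was 0.06. The 7 members other than Rasd2 and Ddit4l had log2 fold changes from −0.20 to 0.48, and so lay near or within that middle range. Regions did not overlap for 2 members that were lower and 5 that were higher in the accumbens. Over all tested genes 25.6% were lower and 25.6% higher without overlap, 51.2% together. Rasd2 and Ddit4l were the 2 members past an edgeR adjusted p of 0.05, where 1.28% of all tested genes were. That count was fixed by the choice of the members, and nothing is read from it.

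**Figure D3:**
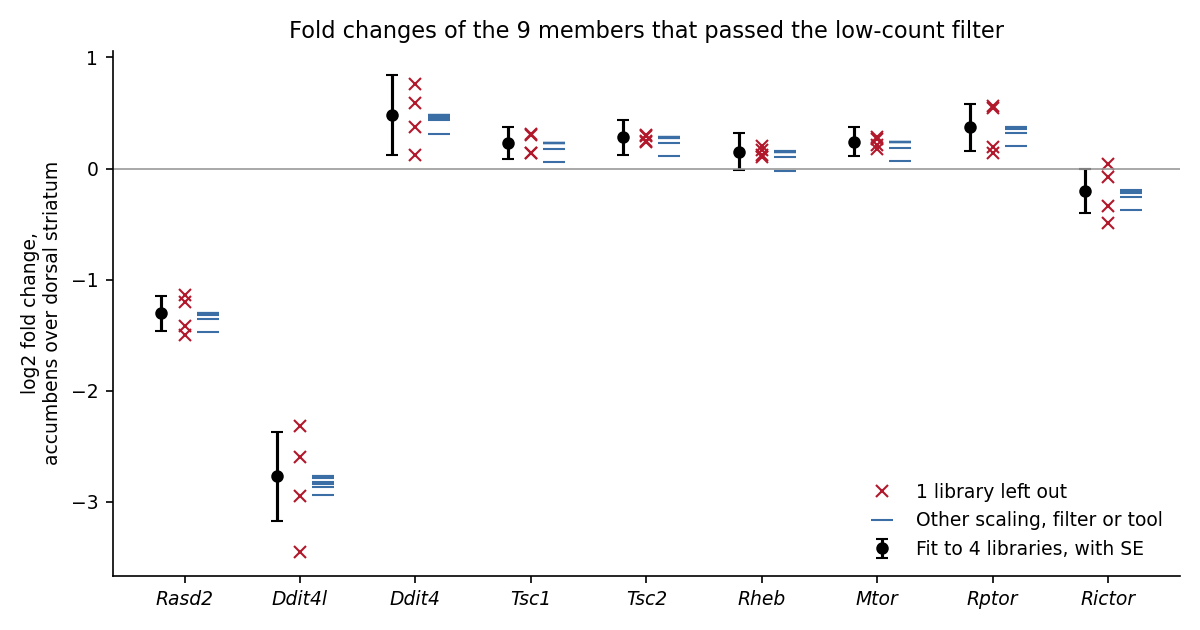
log2 fold change (accumbens over dorsal striatum, vertical axis) of the 9 members that passed the low-count filter, from the fit to 4 libraries with its SE (black), with 1 library left out (crosses) and with other scalings, filters or tools (bars). Rasd2 and Ddit4l stay below −1.1 throughout, the remaining members lie from −0.49 to 0.76, and Rictor and Rheb cross 0.

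The rest of the mTOR pathway was examined through 7 lists of pathway genes from textbook knowledge. Outside the members they held 75 genes, of which 73 were tested. One difference passed the threshold, that of Rragd, a share of 1.37% against 1.28% of all tested genes. An unadjusted p under 0.05 in edgeR was found for 14 genes, 19.2%, the share also found over all tested genes (19.2%). The median log2 fold change of the 73 genes was 0.07 against 0.02, and 49.3% had non-overlapping regions against 51.2% of all tested genes. A change within 0.5 on the log2 scale in either direction was measured for 58 of them.

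Rragd encodes RagD, a GTPase that helps recruit mTORC1 to the lysosome when amino acids are present. It stood at 441 and 432 CPM in the dorsal striatum and at 243 and 277 CPM in the accumbens. Both accumbens libraries were far below, with a log2 fold change of −0.75 (SE 0.13, edgeR adjusted p = 0.0431). It was the single gene of 13 in the list of Rag GTPases and Ragulator to pass, and the list's median was 0.14. Over all tested genes, 0.29% passed the threshold with a lower level in the accumbens. Rragd kept its direction and its side of the threshold under each of the 14 alternatives.

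None of the 8 further subunits of the mTOR complexes passed the threshold (median 0.19). With 1.28% of all tested genes past it, 0 calls in a list this short, here or below, do not show an absence of difference. Mapkap1, which encodes the mTORC2 subunit Sin1, stood at 78.5 ± 0.583 CPM in dorsal striatum and 72.3 ± 13.4 CPM in accumbens, and Deptor, an inhibitory subunit gene, at 46.7 ± 5.74 against 34.0 ± 6.20 CPM. The list ran from −1.20 for Prr5l to 1.23 for Akt1s1, both at low levels. Tbc1d7, the third subunit of the TSC complex, stood at 8.98 ± 0.975 CPM in dorsal striatum and 20.1 ± 3.39 CPM in accumbens, a log2 fold change of 1.16 (SE 0.31) with an edgeR adjusted p of 0.106. Rhebl1, a Rheb relative, was at 1.32 ± 0.513 against 1.75 ± 0.891 CPM, and neither gene of that pair passed.

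The next 2 lists, of nutrient and energy sensing genes other than the Rag GTPases and Ragulator, gave 0 calls, where 1.28% of all tested genes passed. Of 15 genes of the GATOR and KICSTOR complexes and the amino acid sensors (median −0.04), the stress-induced sestrin gene Sesn3 stood at 112 ± 9.09 against 109 ± 6.25 CPM and the arginine sensor relative Castor2 at 96.1 ± 7.09 against 105 ± 13.8 CPM. Of 7 genes of LKB1 and AMPK (median −0.14), 6 had a negative log2 fold change. Prkaa2, the AMPK catalytic subunit gene common in neurons, stood at 95.5 ± 5.67 against 71.6 ± 0.680 CPM, and the regulatory subunit gene Prkab2 at 56.0 ± 3.76 against 69.5 ± 25.1 CPM.

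Upstream, none of 13 genes of the insulin and IGF receptors, PI3K and Akt passed (median 0.07), where 1.28% of all tested genes did. Their log2 fold changes ran from −0.31 for Pik3ca to 0.91 for Irs2 (SE 0.18, edgeR adjusted p = 0.0552). Pdpk1, whose product activates Akt, stood at 482 ± 5.89 against 440 ± 3.93 CPM. Downstream, none of 15 genes of mTORC1 and mTORC2 substrates and effectors passed (median 0.14). This list ran from −0.42 for Eif4e to 1.03 for Eif4ebp2 (SE 0.20, edgeR adjusted p = 0.0552). Eif4b, a translation initiation factor gene, stood at 327 ± 14.0 against 261 ± 4.51 CPM, and Larp1, the gene of an RNA-binding repressor of ribosomal protein mRNAs, at 189 ± 5.13 against 209 ± 10.9 CPM.

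**Figure D4:**
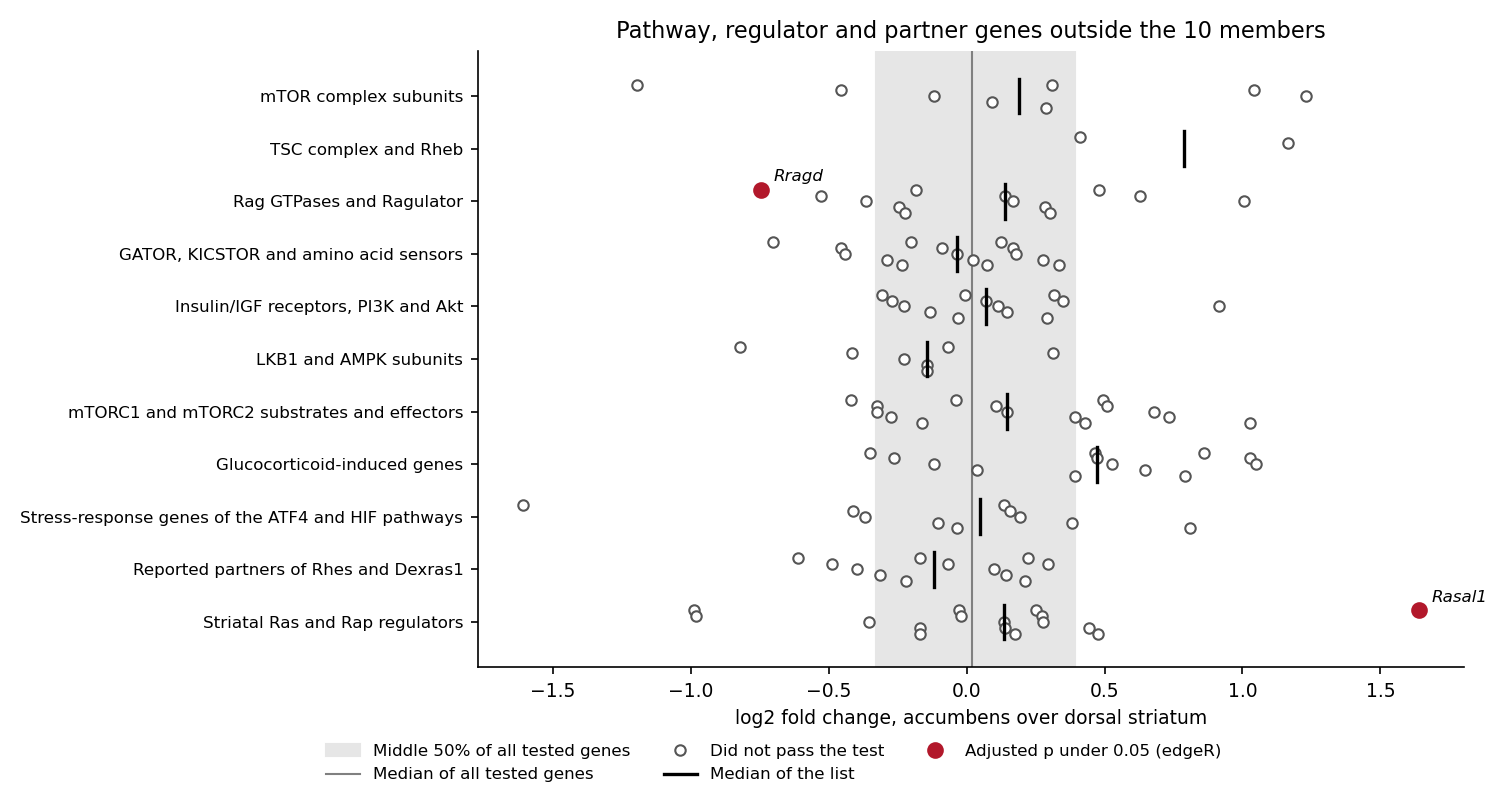
log2 fold change (accumbens over dorsal striatum, horizontal axis) of each tested gene outside the 10 members in 11 lists; filled points passed the edgeR threshold, black ticks are list medians, and the grey band is the middle 50% of all tested genes. Rragd is the single filled point below 0 and Rasal1 the single one above it.

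Genes that share inducers with Ddit4 and Rasd1 were listed too. None of 13 genes listed for glucocorticoid response passed, where 1.28% of all tested genes did. The list also holds Nr3c1, the gene of the glucocorticoid receptor itself (log2 fold change −0.35). Of the 13, 10 had a positive log2 fold change, and the list's median was 0.47. Per1, a clock gene, stood at 110.1 ± 17.6 CPM in dorsal striatum against 153 ± 22.2 CPM in accumbens (edgeR adjusted p = 0.191), and the transcription factor gene Klf9 at 109 ± 11.3 against 151 ± 7.998 CPM (edgeR adjusted p = 0.142). Of 10 tested stress genes of the ATF4 and HIF pathways 0 passed (median 0.05), with the HIF subunit gene Epas1 at 91.3 ± 14.1 against 104 ± 9.09 CPM and Ndrg1 at 79.1 ± 22.6 against 77.0 ± 5.07 CPM.

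Among genes whose products are reported partners of Rhes or Dexras1, none of 12 passed (median −0.12), where 1.28% of all tested genes did. Htt, the huntingtin gene, stood at 197 ± 11.7 CPM in dorsal striatum against 242 ± 26.2 CPM in accumbens, and Gnai1, an inhibitory G protein subunit gene, at 287 ± 9.89 against 307 ± 27.2 CPM. Of 16 regulators and members of the Ras and Rap families (median 0.14), 1 passed, with 9 positive and 7 negative log2 fold changes. The lowest were Rasgrp2 (−0.99, SE 0.21, edgeR adjusted p = 0.0640) and Hras (−0.98, SE 0.20, edgeR adjusted p = 0.0606), both without overlap. Rasal1 passed with a higher level in the accumbens, as did 0.994% of all tested genes. This Ras GTPase-activating protein gene stood at 10.7 and 7.33 CPM in the dorsal striatum and at 26.1 and 30.003 CPM in the accumbens (log2 fold change 1.64, SE 0.30, edgeR adjusted p = 0.049). It lost the threshold without dorsal striatum replicates 1 and 2 (0.0789 and 0.300) and with DESeq2, upper-quartile or no scaling factors (0.0527, 0.0515 and 0.0530).

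Profiles nearest to those of Rasd2 and Ddit4l were sought among 11650 other genes, by the root-mean-square distance between log2 CPM values centred over the 4 libraries. The 5 nearest to Rasd2 were Ppm1m (distance 0.04), Epor (0.07), Nmnat3 (0.09), Ido1 (0.10) and Glb1l (0.11), and 110 genes lay within 0.25. No gene lay within 0.25 of Ddit4l, whose 5 nearest were Bmper (0.28), Ak7 (0.30), Clspn (0.34), Rcsd1 (0.39) and Slc9a2 (0.39). Of the latter, Bmper stood at 8.09 and 10.2 CPM in the dorsal striatum and at 1.24 and 2.38 CPM in the accumbens. In the accumbens, the 5 nearest to Ddit4l stood at 0.372 to 2.88 CPM, and Ppm1m, Epor and Glb1l at 1.88 to 3.22 CPM. Counting error weighs on distances at such low levels. Rasd2 and Ddit4l were 0.91 apart. With 4 libraries such distances describe these samples only.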

How the data were processed

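The authors deposited unnormalized read counts for each gene symbol, 1 table per library, made with STAR 2.0.0e and HTSeq on mm10, per the submitters' processing notes. Neither the annotation nor the strand setting is given in the sources used here. Rows that named no gene were removed first. Of all counts in a library, reads in no feature were 27.5% to 35.4%. Ambiguous reads were 6.06% to 9.46% and reads with several alignments 6.98% to 10.2%.

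All genes were fitted together in edgeR 4.0.16 (R 4.3.3): filterByExpr, TMM factors, estimateDisp, glmQLFit and the two-sided quasi-likelihood test with region as the only term, with Benjamini-Hochberg adjustment over 14493 genes and a threshold of 0.05. The standard error is the absolute log2 fold change over the square root of F. Gene positions and transcript lengths came from GENCODE M21 (GRCm38, the chromosomes of mm10), and promoter windows from RefSeq (GRCm38.p6), which matched 9 of the 10 members (not Rasd1).

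The members and lists were chosen with earlier results of these data known. Named are all members, from each list up to 4 genes past the threshold or else the 2 with the highest mean CPM, and the 5 nearest profiles whose mean log2 CPM reached 1, without predicted (Gm, LOC), Rik and GenBank-type names. The values of 1 gene this takes are not reported here. Prr5l, Akt1s1, Pik3ca, Irs2, Eif4e, Eif4ebp2 and Rasgrp2, as ends of ranges, were chosen after their values were seen. So were Hras, Nr3c1 and the marker genes named beside the members. Alternatives were other scalings, filters and tools (DESeq2 1.42.0, limma-voom 3.58.1), a replicate block, leaving out the 50 most abundant genes or each library, and, chosen after seeing the data, SPN markers as denominator.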

Additional observations from a re-analysis of the deposited data

How the results depend on the processing

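The set was chosen with the calls of Rasd2 and Ddit4l known, so their stability is no support. The number of members past the threshold was 2 in every refit except without accumbens replicate 2, where it was 4 (range 2 to 4 with a library left out). The SPN denominator gives ratios only, with no test. The members' median log2 fold change of 0.23 was 0.0593 with library size only and 0.14 to 0.24 with a library left out. Relative to the SPN markers, log2 ratios of Ddit4, Rptor, Tsc2, Mtor, Tsc1, Rheb and Rictor were 0.73, 0.57, 0.49, 0.45, 0.45, 0.36 and 0.03. Each lay above the gene's log2 fold change in the main fit, beside an SPN marker sum that was lower in the accumbens.

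Counts over all genes moved more. The 186 genes past the threshold became 1203 without the low-count filter, 884 with DESeq2, 431 with limma-voom and 371 with legacy=FALSE in edgeR, and ran from 109 (dorsal striatum replicate 1 left out) to 4464 (accumbens replicate 2 left out), with 2789 when accumbens replicate 1 was left out. The 2 calls among the 123 tested genes of the pathway, regulator and partner lists became 1 with DESeq2 size factors and 1 with upper-quartile factors, 14 without the filter, 12 with DESeq2, 8 with limma-voom and 6 with legacy=FALSE, and ran from 1 to 38 with a library left out. The share of calls higher in the accumbens was 77.4%, against 67.4% with upper-quartile factors and 29.5% with library size only. A lone library in a region was taken to vary like the other region's pair.

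With the replicate block 843 genes passed, 11 of them in the lists, and 2 members. The labels name no shared animal, so the block was kept as an alternative. The correlation of same-numbered deviations across genes was 0.03. With 2 libraries per region, that value cannot show whether same-numbered libraries share an animal. The causes of these shifts were not tested. The profile neighbours kept 8 of 10 genes with a prior count of 0.5. Depth limits Rasd1, at 0 to 16 counts, and the accumbens values of Ddit4l.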
